A study of Homo sapiens with 8 samples.

Results

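The data on hypoxia in VHL-restored 786-O cells consisted of 4 arrays, out of 8 in the series. They were chosen by their labels as the 2 arrays of VHL+ cells under hypoxia and the 2 arrays of VHL+ cells under normoxia. 786-O is a human renal cell carcinoma line without functional VHL, and the VHL+ cells are stable transfectants of this line that carry a VHL expression vector and were kept as bulk cultures. The cells were incubated for 24 h under normoxia or at 1% O2, and total RNA was hybridized to Affymetrix Human Gene 1.0 ST arrays. The other 4 arrays held VHL- 786-O cells under the same conditions, with 2 replicates in each group. Their titles name no transfection, and the study calls the cells of this hypoxia comparison wild type, thus without the vector backbone. The data held 33297 sets of probes, called transcript clusters here, of which 19460 carried 1 gene symbol and represented 18417 genes. The 12083 clusters without a symbol were not checked for controls of the array. Shares of all clusters and the adjustment of p-values include them. The labels call the replicates biological without naming their cultures. The p-values rest on the spread between replicate arrays of all 4 groups, which limma, the test used, draws toward a value shared by all clusters.

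The VHL protein marks the alpha subunits of the hypoxia-inducible factors (HIF) for degradation once prolyl hydroxylases of the EGLN family, which need oxygen, have modified them. In hypoxia the modification fails, HIF accumulates, pairs with ARNT and switches on genes for glucose uptake, glycolysis, angiogenesis, pH control and collagen modification. Cells that lack VHL keep HIF under normoxia, and 786-O cells are known for relying on HIF2A, the product of EPAS1. In cells with restored VHL, the comparison of hypoxia with normoxia therefore asks which mRNA levels follow oxygen.

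The VHL mRNA itself had a log2 signal of 8.86 and 8.86 in VHL+ cells under normoxia and of 9.08 and 9.16 under hypoxia, above the 8.23 to 8.51 of the 4 VHL- arrays. Its signal does not tell the transfected from the endogenous transcript. Among 11 kidney and renal carcinoma markers, 7 lay above the 75th percentile of all 4 VHL+ arrays (PAX8, KRT8, KRT18, VIM, CDH2, CDH6 and NNMT), while 10 of 15 markers of other cell types lay below the median of all 4. Of these other markers, CD68 lay above the 75th percentile on all 4 arrays. The summed log2 signal of the 15 markers was 98.96 and 99.5 under normoxia and 102.76 and 99.16 under hypoxia, and its part in the results was not tested. Replicates had a Pearson correlation of 0.993 under normoxia and 0.994 under hypoxia across clusters, which are not independent. The median log2 signal was 6.68 and 6.75 on the normoxia arrays and 6.91 and 6.74 on the hypoxia arrays, so that VHL+ hypoxia replicate 1 was the brightest of the 8 arrays. The median log2 fold change of all clusters was 0.09 as deposited, 0.003 after quantile normalization and −0.03 after median centring.

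Hypoxia up-regulated a small group of strongly responding genes in VHL+ cells, led by NDRG1, EDN2, CXCL8, LOC151760 and SLC2A1, whereas a single named gene, IL18, was down-regulated. The low number of falls depended on the scaling of the arrays, as given below. With limma and a Benjamini-Hochberg adjusted p below 0.05, 50 clusters (0.150% of all clusters) were higher and 1 cluster (0.00300%) was lower under hypoxia. The 51 clusters comprised 46 clusters with 1 symbol that stood for 45 genes, 1 cluster shared by USP41P and USP18, and 4 clusters without a symbol, which rose by 0.70 to 1.68 on the log2 scale. The log2 fold changes of the 50 rising clusters ranged from 0.70 to 2.28, with standard errors from 0.13 to 0.28 over all 51, and 23 clusters changed at least 2-fold. In bulk RNA a change in the share of cells and a change per cell cannot be told apart. All 51 clusters had groups without overlap, which was also the case for 27.9% of all clusters in the direction of a rise and for 2.36% in the direction of a fall.

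**Figure D1:**
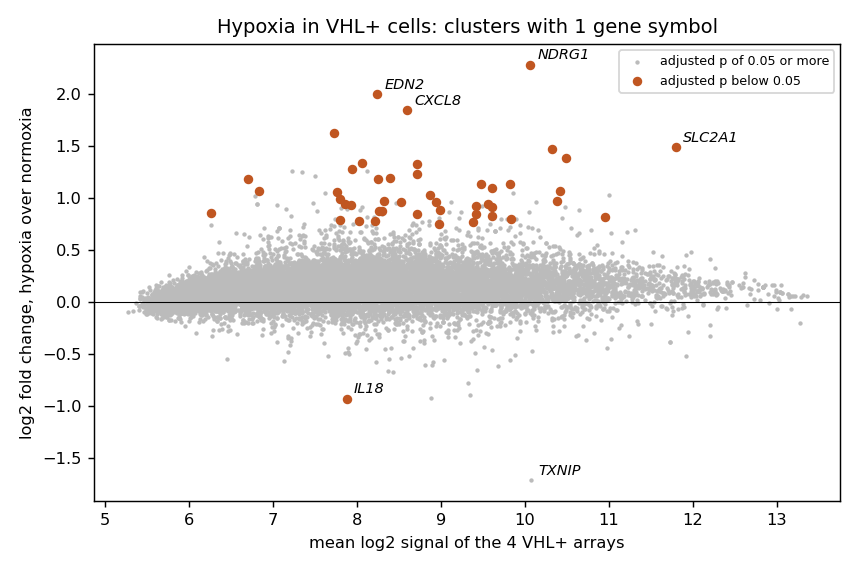
Each point is a transcript cluster with 1 gene symbol, with its mean log2 signal over the 4 VHL+ arrays on the horizontal axis and its log2 fold change under hypoxia over normoxia on the vertical axis. Coloured points passed an adjusted p of 0.05, and they lie above 0.70 with the exception of IL18, whereas TXNIP, the largest fall, did not pass.

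These calls depended on single arrays and on the scaling. Without VHL+ hypoxia replicate 1 no cluster passed limma's test, with 1021 clusters at an unadjusted p below 0.05, and without VHL+ hypoxia replicate 2 only 4 passed, 1 of them among the 51. Without VHL+ normoxia replicate 1, 29 of the 51 clusters passed, and without VHL+ normoxia replicate 2 all 51 among 354 calls. Leaving out an array of the VHL- cells, which enters through the estimate of the spread, raised the number of calls to 209 for either normoxia array and to 304 for either hypoxia array. After quantile normalization or median centring, NDRG1 alone passed, but all 51 clusters kept their direction in each of these fits. After quantile normalization the 51 clusters still had groups without overlap, as had 17.5% of all clusters in the direction of a rise and 16.5% in the direction of a fall. Their adjusted p then ranged from 0.0886 to 0.833 apart from NDRG1, and the log2 fold changes of the rising clusters from 0.59 to 2.13. The balance of rises and falls moved as well. At an unadjusted p below 0.005, limma called 353 clusters higher and 29 lower as deposited, and 139 and 112 after quantile normalization.

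The largest change was that of NDRG1, a gene of the HIF target list, which does not hold EDN2, CXCL8 or LOC151760. Of 44 measured genes of the HIF target list, 7 (15.9%) rose and none fell, against 0.150% and 0.00300% of all clusters, and 42 had a log2 fold change above 0, as against 36 genes after quantile normalization and 37 after median centring. The list had a median log2 fold change of 0.34, which was 0.18 after quantile normalization. Of its genes, 28 (63.6%) had hypoxia signals above both normoxia signals, against 27.9% of all clusters. After quantile normalization this held for 27 genes (61.4%), against 17.5% of all clusters. For cytosolic ribosomal proteins the shares were 81.8% as deposited and 13.6% after quantile normalization, and for reference genes 70% and 30%. The 7 genes were NDRG1, SLC2A1, ADM, CA12, STC2, HK2 and P4HA1. HIF binds to DNA at a core of ACGTG or GCGTG. To show how this core lies in front of the responding genes, the 250 bases upstream of the transcription start are given for 6 of the 7 genes. NDRG1 is left out because the promoters used held none for it. The sequences run 5′ to 3′ on the strand of the gene, as in the RefSeq annotation of the build GRCh38.p14. Capitals mark matches to these letters on either strand. The regions are chr1:42958869-42959118 (minus strand) for SLC2A1, chr11:10304823-10305072 (plus strand) for ADM, chr15:63381847-63382096 (minus strand) for CA12, chr5:173328415-173328664 (minus strand) for STC2, chr2:74833877-74834126 (plus strand) for HK2 and chr10:73096867-73097116 (minus strand) for P4HA1.
SLC2A1: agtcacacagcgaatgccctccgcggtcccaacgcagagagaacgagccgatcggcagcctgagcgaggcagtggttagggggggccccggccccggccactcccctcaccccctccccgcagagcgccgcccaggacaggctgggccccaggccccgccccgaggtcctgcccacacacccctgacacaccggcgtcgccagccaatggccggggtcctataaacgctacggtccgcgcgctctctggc
ADM: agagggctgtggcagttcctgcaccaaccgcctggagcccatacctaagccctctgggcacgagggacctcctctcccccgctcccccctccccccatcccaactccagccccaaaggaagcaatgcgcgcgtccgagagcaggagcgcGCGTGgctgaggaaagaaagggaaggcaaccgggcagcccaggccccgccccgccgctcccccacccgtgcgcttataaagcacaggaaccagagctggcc
CA12: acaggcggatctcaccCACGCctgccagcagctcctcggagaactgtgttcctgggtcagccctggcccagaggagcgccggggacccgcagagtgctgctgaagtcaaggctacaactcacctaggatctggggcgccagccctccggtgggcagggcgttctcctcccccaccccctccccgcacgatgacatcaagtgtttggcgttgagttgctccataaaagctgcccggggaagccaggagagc
STC2: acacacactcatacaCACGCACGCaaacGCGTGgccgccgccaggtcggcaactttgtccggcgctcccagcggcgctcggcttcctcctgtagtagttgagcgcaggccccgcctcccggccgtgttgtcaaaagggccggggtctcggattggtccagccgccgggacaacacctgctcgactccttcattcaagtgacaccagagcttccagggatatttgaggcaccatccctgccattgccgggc
HK2: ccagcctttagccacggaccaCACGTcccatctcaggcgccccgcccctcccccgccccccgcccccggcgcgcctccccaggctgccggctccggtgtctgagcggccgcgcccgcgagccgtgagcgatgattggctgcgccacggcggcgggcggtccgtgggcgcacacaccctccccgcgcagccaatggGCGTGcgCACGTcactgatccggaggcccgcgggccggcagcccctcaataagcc
P4HA1: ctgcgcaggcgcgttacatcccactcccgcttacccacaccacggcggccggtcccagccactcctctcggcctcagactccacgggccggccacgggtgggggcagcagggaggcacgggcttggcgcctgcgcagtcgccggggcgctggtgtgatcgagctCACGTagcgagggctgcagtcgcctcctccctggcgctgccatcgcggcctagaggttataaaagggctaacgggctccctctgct

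ADM, CA12 and P4HA1 each held 1 match to the core, STC2 and HK2 held 3, and SLC2A1 held none within this window. In STC2 a pair of matches overlaps by a base. Such a core is short and common. It was present in 43.1% of the 27305 promoters of the table, in 51.1% of the 14239 promoters of genes on the array, in 15 of the 33 promoters (45.5%) found for genes called higher, and in 30 of the 37 promoters (81.1%) found for the HIF target list. A match describes the sequence, and binding was not measured.

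NDRG1, a cytoplasmic stress-response protein known for its induction by hypoxia, changed most. Its log2 signal was 8.91 and 8.93 under normoxia and 11.29 and 11.12 under hypoxia. The replicates lay close together and the groups far apart, with a rise of 2.28 ± 0.14 (SE) on the log2 scale or 4.85-fold (limma, adjusted p = 1.48e-07, n = 2 arrays per group). NDRG1 was the gene that passed after quantile normalization, with a log2 fold change of 2.13 and an adjusted p of 0.0129. Without VHL+ hypoxia replicate 1 the adjusted p of NDRG1 was 0.0505, and it passed on leaving out any of the other 7 arrays. SLC2A1 encodes the glucose transporter GLUT1 and was among the brightest genes, with log2 signals of 10.81 and 11.30 under normoxia and of 12.61 and 12.47 under hypoxia. Both hypoxia arrays exceeded both normoxia arrays by more than the replicates differed, and SLC2A1 rose by 1.49 ± 0.16, or 2.80-fold (adjusted p = 0.000351).

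ADM, the precursor of the vasodilator adrenomedullin, had log2 signals of 7.51 and 8.08 under normoxia and of 9.03 and 8.95 under hypoxia. It rose by 1.19 ± 0.19 (adjusted p = 0.00874), and its normoxia replicates differed more than its hypoxia replicates. The same held for CA12, a membrane carbonic anhydrase that acts on extracellular pH, with 9.01 and 9.51 under normoxia, 10.55 and 10.24 under hypoxia and a rise of 1.13 ± 0.19 (adjusted p = 0.0132). STC2, the secreted glycoprotein stanniocalcin 2, went from 7.15 and 7.31 to 8.31 and 8.27, with a rise of 1.05 ± 0.17 (adjusted p = 0.0104). HK2 encodes hexokinase 2, which phosphorylates glucose in the opening step of glycolysis. Its log2 signal of 7.70 and 7.97 under normoxia and of 8.85 and 8.76 under hypoxia gave a rise of 0.97 ± 0.15 (adjusted p = 0.0104). P4HA1, a catalytic subunit of the collagen prolyl 4-hydroxylase, went from 8.75 and 9.17 to 9.93 and 9.83, by 0.92 ± 0.15 (adjusted p = 0.0127).

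Other well-known HIF targets, of which P4HA2, DDIT4 and PDK1 were chosen after their values were seen, did not pass, although their groups did not overlap. VEGFA, the main angiogenic growth factor, had log2 signals of 8.86 and 9.54 under normoxia and of 9.82 and 9.97 under hypoxia, a difference of 0.69 ± 0.20 (adjusted p = 0.360). The normoxia replicates of VEGFA lay further apart than its hypoxia replicates. DDIT4, an inhibitor of mTORC1, had a larger difference of 1.21 but a standard error of 0.27 (adjusted p = 0.122), with 6.73 and 7.07 under normoxia and 7.59 and 8.63 under hypoxia. P4HA2, the sister gene of P4HA1, differed by 0.71 (adjusted p = 0.0674) and BNIP3L, a mitophagy receptor, by 0.69 (adjusted p = 0.0765). For PDK1, which restrains pyruvate entry into the citric acid cycle, the difference was 0.35 (adjusted p = 0.870). With the replicate number as a block, P4HA2, DDIT4, VEGFA and BNIP3L passed and PDK1 did not, though the labels name no shared cultures. CCND1, TGFA, EDN1 and TXNIP, described below, were among the other genes that passed with this block.

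**Figure D2:**
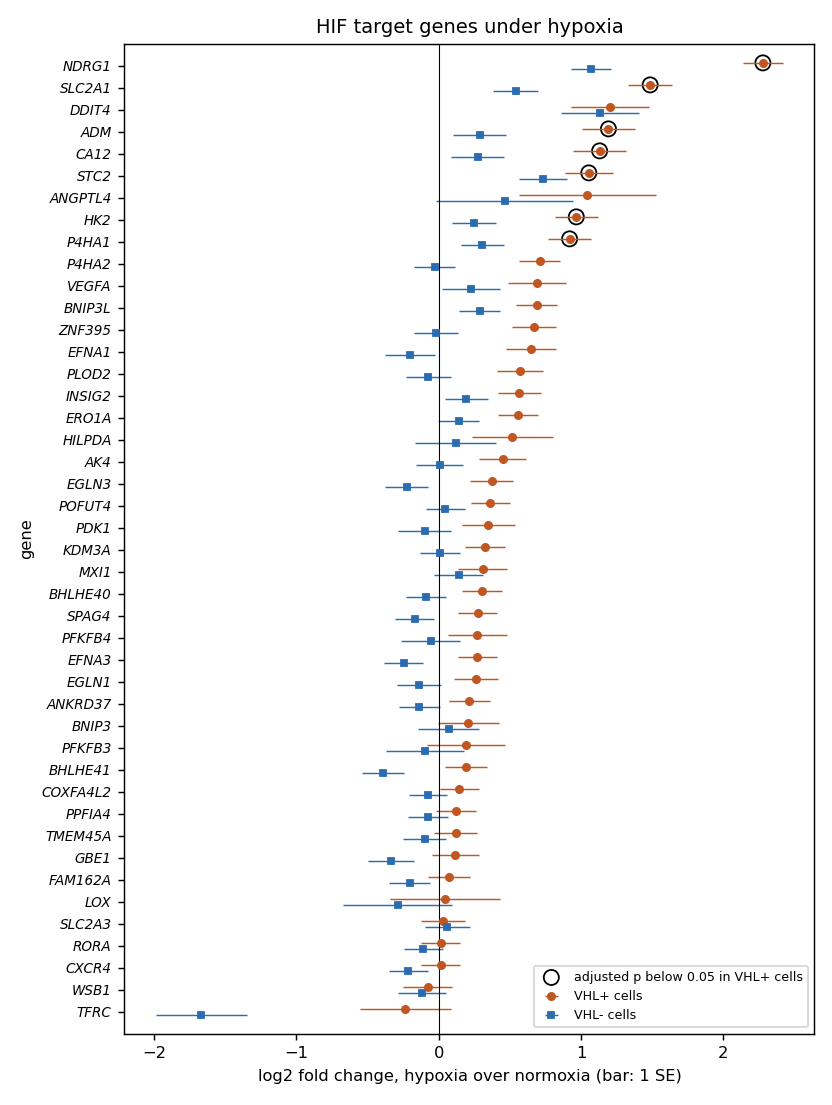
Log2 fold changes under hypoxia over normoxia are shown on the horizontal axis for the 44 measured HIF target genes on the vertical axis, in VHL+ (circles) and VHL- cells (squares), with bars of 1 SE. The 7 ringed genes, from P4HA1 at 0.92 to NDRG1 at 2.28, passed in VHL+ cells, where 42 of the 44 values lie above 0.

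None of the 19 measured genes of oxygen sensing and HIF subunits passed, and their median log2 fold change of 0.08 was near that of all clusters. EPAS1, which encodes HIF2A, had log2 signals of 9.44 and 9.44 under normoxia and of 9.62 and 9.20 under hypoxia, so that its groups overlapped. HIF1A was the member with the lowest value, a difference of −0.37 (adjusted p = 0.616), with 8.62 and 8.88 under normoxia and 8.32 and 8.44 under hypoxia. EGLN3, an oxygen-dependent prolyl hydroxylase and itself a HIF target, differed by 0.37 (adjusted p = 0.699) and EGLN1 by 0.27 (adjusted p = 0.888). The difference was 0.41 for the transmembrane prolyl hydroxylase gene P4HTM (adjusted p = 0.577) and 0.26 for VHL (adjusted p = 0.865). The remaining members, ARNT, ARNT2, HIF3A, HIF1AN, CUL2, RBX1, ELOB, ELOC, SIAH1, SIAH2, CITED2, EP300 and CREBBP, lay between −0.16 and 0.27, and HIF3A, ARNT, HIF1AN, CUL2 and ELOC changed sign after quantile normalization and after median centring.

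Among 16 measured HIF2A targets of renal carcinoma, 2 (12.5%, against 0.150% of all clusters) rose, namely NDRG1 and SLC2A1, which are also in the HIF target list, and the median was 0.42. CCND1, the cyclin D1 gene, had log2 signals of 9.31 and 10.00 under normoxia and of 10.63 and 10.61 under hypoxia, a difference of 0.96 ± 0.21 (adjusted p = 0.0844). TGFA, a ligand of the EGF receptor, differed by 0.80 (adjusted p = 0.0901). SLC2A1 and HK2 were the 2 genes that passed among 35 measured genes of glucose transport, glycolysis and glycogen. They were 5.71% of this list, against 0.150% of all clusters called higher, and its median was 0.20. All 35 values lay above 0, against 28 after quantile normalization and 27 after median centring. Hypoxia signals lay above both normoxia signals in 25 genes (71.4%), against 16 (45.7%) after quantile normalization, beside 27.9% and 17.5% of all clusters. All 22 cytosolic ribosomal protein genes and all 10 reference genes also lay above 0 as deposited, against 15 and 9 after quantile normalization. Of these, 81.8% and 70% had hypoxia signals above both normoxia signals, against 13.6% and 30% after quantile normalization. Apart from HK2, no enzyme of the glycolytic chain passed, and the differences were 0.81 for the enolase gene ENO2 (adjusted p = 0.476), 0.53 for the phosphofructokinase gene PFKL, 0.28 for LDHA (adjusted p = 0.838), 0.25 for PGK1, 0.20 for TPI1 and 0.19 for ALDOA. CA12 alone passed among 10 measured genes of lactate export and pH (10%, against 0.150% of all clusters called higher). In mitochondria, no gene passed among 56 measured genes of the respiratory chain (median 0.13) or 25 genes of the citric acid cycle (median 0.17), where SDHA of complex II differed by 0.37 (adjusted p = 0.737). The metabolic enzyme genes ECHS1, FAH and ACO1 differed by 0.21, 0.33 and 0.13, the ferritin light chain gene FTL by 0.06 and ACTB, the beta-actin gene, by 0.12, with none past the threshold, and ACO1 and FTL turned to −0.03 and −0.08 after quantile normalization.

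A vasoactive and a chemotactic peptide gene ranked next to NDRG1 among all named genes. EDN2, which encodes the vasoconstrictor endothelin 2, had log2 signals of 7.38 and 7.11 under normoxia and of 9.72 and 8.76 under hypoxia. It rose by 1.99 ± 0.23, or 3.99-fold (adjusted p = 0.000770), with hypoxia replicates that lay further apart than the normoxia replicates. CXCL8, the neutrophil chemokine interleukin 8, had 7.19 and 8.17 under normoxia and 9.26 and 9.79 under hypoxia. Although its normoxia replicates were far apart, both hypoxia arrays were higher, and CXCL8 rose by 1.84 ± 0.26, or 3.59-fold (adjusted p = 0.00494). EDN1, the related endothelin 1, differed by 1.25 ± 0.25 without passing (adjusted p = 0.0616). Of 26 measured angiogenic and vasoactive factors, 3 (11.5%, against 0.150% of all clusters called higher) passed, namely ADM, STC2 and NRP2, and the median of 0.14 was low. NRP2 encodes neuropilin 2, a co-receptor for VEGF family members and semaphorins, and both of its clusters passed, with rises of 0.88 and 0.95.

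**Figure D3:**
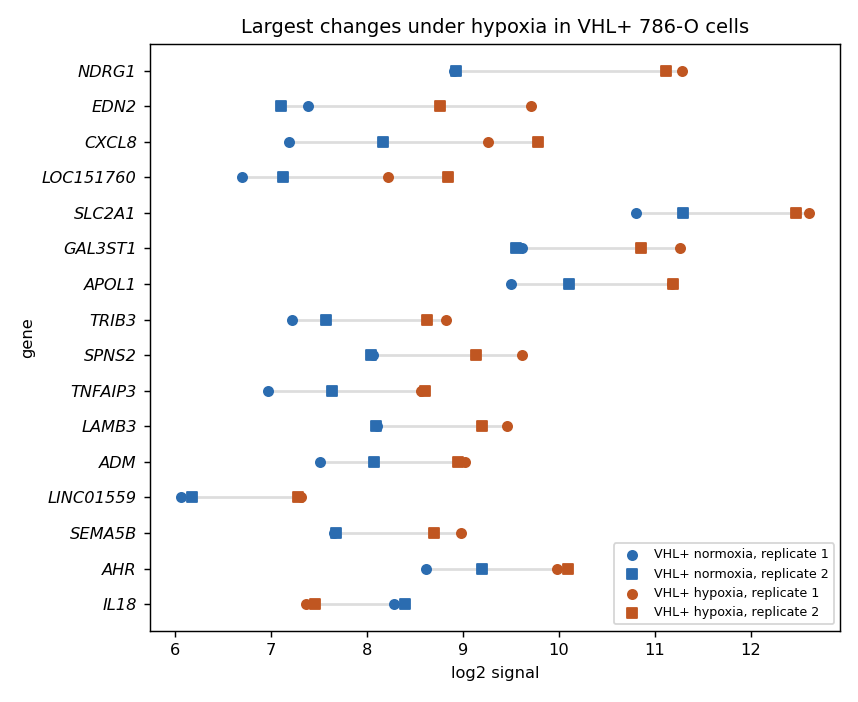
Log2 signals on the 4 VHL+ arrays (horizontal axis) are plotted for the 15 largest rises among genes that passed an adjusted p of 0.05 and for IL18 (vertical axis), with colours for normoxia and hypoxia and symbols for the replicates. In each of these genes the hypoxia arrays lie on one side of the normoxia arrays, from NDRG1 with a log2 fold change of 2.28 to AHR with 1.13, and IL18 with −0.93 runs the other way.

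Cytokines and NF-kB targets moved in both directions. Of 30 measured genes, 4 (13.3%) rose and 1 fell, against 0.150% and 0.00300% of all clusters. The median was 0.42, or 0.27 after quantile normalization. Besides CXCL8, the gene for the NF-kB inhibitor A20, TNFAIP3, rose by 1.28 ± 0.18 (adjusted p = 0.00409), from 6.97 and 7.64 to 8.56 and 8.60. NFKBIA, which encodes the inhibitor IkB alpha, rose by 0.97 (adjusted p = 0.0193) and CSF1, the macrophage growth factor, by 0.82 (adjusted p = 0.0401). Thus 2 of the 4 rising members encode inhibitors of NF-kB itself. IL18, a cytokine of the interleukin 1 family, had log2 signals of 8.29 and 8.40 under normoxia and of 7.37 and 7.46 under hypoxia. The replicates of both groups nearly coincided, and IL18 fell by 0.93 on the log2 scale with a standard error of 0.15 (adjusted p = 0.0113). NFKB2 differed by 0.64 (adjusted p = 0.115) and the chemokine gene CXCL1 by 0.68 (adjusted p = 0.291). Among 28 measured interferon-stimulated genes, OAS3, an oligoadenylate synthetase that senses double-stranded RNA, was the gene that passed (0.87, adjusted p = 0.0201). This call was 3.57% of the list, against 0.150% of all clusters called higher. OAS1 missed the threshold (0.75, adjusted p = 0.0662) as did the RNA sensor gene IFIH1 (0.64, adjusted p = 0.120), and the list had a median of 0.35. None of 14 measured genes of MHC class I antigen processing passed, with TAP1 at 0.68 (adjusted p = 0.291) and PSMB9 at 0.55 (adjusted p = 0.614).

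Further large rises belonged to genes of varied function. GAL3ST1, which makes the sphingolipid sulfatide, had log2 signals of 9.62 and 9.56 under normoxia and of 11.26 and 10.86 under hypoxia and rose by 1.47 ± 0.18 (adjusted p = 0.00104). SPNS2, the exporter of sphingosine 1-phosphate, went from 8.07 and 8.04 to 9.61 and 9.14, by 1.32 ± 0.16 (adjusted p = 0.00104). In both genes the normoxia replicates nearly coincided and hypoxia replicate 1 was the higher one. These were the 2 genes that passed among 15 measured genes of sphingosine phosphate and transport (13.3%, against 0.150% of all clusters called higher, median 0.29). APOL1, an apolipoprotein of innate defence, rose by 1.38 ± 0.17 (adjusted p = 0.00104), from 9.50 and 10.11 to 11.18 and 11.19. LAMB3 encodes a laminin chain of the basement membrane and rose by 1.23 ± 0.18 (adjusted p = 0.00532). SEMA5B, a semaphorin gene, rose by 1.18 ± 0.18 (adjusted p = 0.00629). AHR, the aryl hydrocarbon receptor that shares the partner ARNT with HIF, rose by 1.13 ± 0.19 (adjusted p = 0.0138), from 8.61 and 9.20 to 9.98 and 10.10. The transcripts LOC151760 and LINC01559, the latter a long non-coding RNA, rose by 1.62 (adjusted p = 0.000770) and 1.18 (adjusted p = 0.0220).

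The lists of stress and nutrient genes held 4 called genes. TRIB3, a pseudokinase known as an ATF4 target, went from 7.22 and 7.57 to 8.83 and 8.63 and rose by 1.33 ± 0.19 (adjusted p = 0.00531). TRIB3 and STC2 were the 2 genes that passed among 36 measured ATF4 targets and genes of serine synthesis (5.56%, against 0.150% of all clusters called higher, median 0.35). No gene passed among 23 measured ER chaperones and genes of the unfolded protein response. Of them, 20 (87.0%) had hypoxia signals above the normoxia signals, and 12 (52.2%) after quantile normalization, beside 27.9% and 17.5% of all clusters. The same shares were 81.8% and 13.6% for cytosolic ribosomal proteins and 70% and 30% for reference genes. HERPUD1, a component of ER-associated degradation, had the smallest p of the ER list (0.75, adjusted p = 0.0815). ARRDC3, an arrestin-domain adaptor, rose by 1.06 ± 0.19 (adjusted p = 0.0254) and IRS2, an adaptor of the insulin receptor, by 0.87 ± 0.15 (adjusted p = 0.0193). They were 2 of 27 measured genes (7.41%) of the list of growth and nutrient brakes, against 0.150% of all clusters called higher. In the same list TXNIP, which restrains glucose uptake, had the lowest value of all named genes, a difference of −1.71. Its log2 signals of 10.08 and 11.78 under normoxia and of 9.08 and 9.35 under hypoxia did not overlap, but the normoxia replicates lay far apart and TXNIP did not pass (SE 0.36, adjusted p = 0.0765). Of 34 genes of collagen modification and matrix, P4HA1 passed (2.94%, against 0.150% of all clusters called higher, median 0.16).

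The other 20 of the 31 lists, counting those of oxygen sensing, the mitochondria, MHC class I and the ER described above, held no gene that passed, and their medians ranged from −0.07 to 0.35. The highest of them was that of 20 genes of cholesterol synthesis (0.35), with SREBF2 at 0.66 (adjusted p = 0.135) and MSMO1 at 0.79 (adjusted p = 0.219). The lowest was that of 17 replication-dependent histones (−0.07), and 49 genes of the cell cycle and DNA replication had a median of 0.09. Metalloproteases and adhesion genes (42 genes, median 0.18), EGF receptor ligands and growth factor signalling (38 genes, 0.17), lipid droplet and fatty acid genes (33 genes, 0.21) and iron, NRF2 and antioxidant genes (32 genes, 0.07) gave no call. The same was found for mitophagy and autophagy (24 genes, 0.17), aminoacyl-tRNA synthetases (19 genes, 0.20), JmjC demethylases and chromatin enzymes (21 genes, 0.14), clock output genes (17 genes, 0.04), cytosolic ribosomal proteins (22 genes, 0.13), kidney and renal carcinoma markers (11 genes, 0.14) and markers of other cell types (15 genes, 0.09). The 10 measured reference genes had a median of 0.24, above the 0.09 of all clusters, and of 0.09 after quantile normalization. After quantile normalization 24 of the 31 medians stayed above 0 and after median centring 25, compared with 30 as deposited, and the medians of oxygen sensing, the cell cycle, clock output and iron genes turned below 0 in both. With lists chosen for these cells, the counts describe the lists and do not set them apart from other genes.

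**Figure D4:**
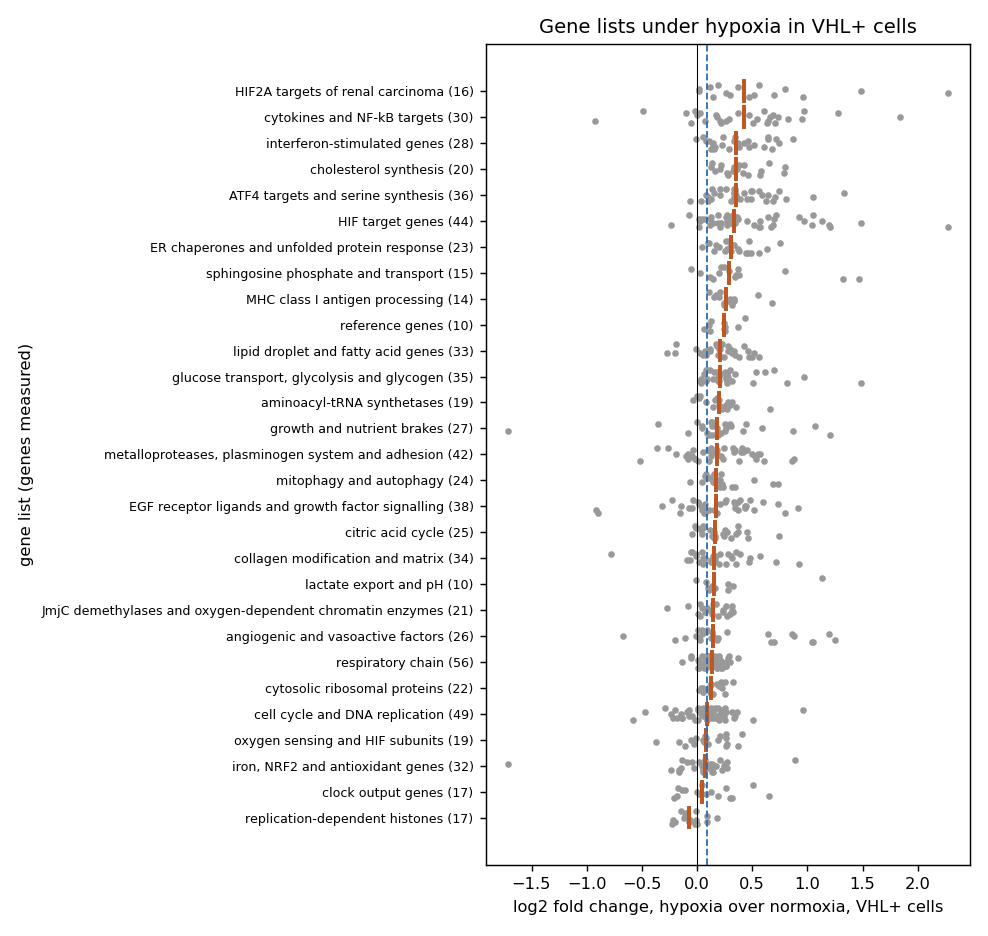
Each grey point is the log2 fold change of a listed gene under hypoxia over normoxia in VHL+ cells (horizontal axis), with the gene lists on the vertical axis and the number of measured genes in parentheses. Orange bars mark the medians, from −0.07 for histones to 0.42 for HIF2A targets, and the dashed line the median of all clusters at 0.09.

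Of the 45 called genes, 26 were in none of the lists. Beyond the largest called rises named above, the genes given here were chosen after their values were seen. EFHD2, a calcium-binding actin regulator, rose by 1.10 ± 0.14 (adjusted p = 0.00115), from 8.96 and 9.17 to 10.06 and 10.27. RBCK1, a subunit of the linear ubiquitin chain assembly complex, rose by 0.96 (adjusted p = 0.00762), and TNIP1, a binding partner of A20, by 0.85 (adjusted p = 0.0278). The dNTP hydrolase gene SAMHD1 rose by 0.96 (adjusted p = 0.0252), USP18, whose product removes ISG15 from proteins, by 0.93 (adjusted p = 0.0133) and the chemokine gene CXCL10 by 0.86 (adjusted p = 0.0367). The USP18 cluster and the one it shares with USP41P may hold probes for the same transcripts. CXCL10 was dim, at 5.75 and 5.93 under normoxia and 6.42 and 6.98 under hypoxia. SERPINA6, the corticosteroid-binding globulin, rose by 1.06 (adjusted p = 0.0104) and C1QL1, a secreted C1q-like protein, by 1.03 (adjusted p = 0.00532). The transporters SLC5A3 for myo-inositol and SLC39A14 for zinc and iron rose by 0.78 (adjusted p = 0.0323) and 0.77 (adjusted p = 0.0246). Other called genes were ARHGEF6, ZHX2, TP53BP2, CDCP1, MARCHF3, ETS1, RASSF4, PAG1 and TMEM158, with rises from 0.75 to 0.99.

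In VHL- cells, hypoxia called 7 clusters higher (0.0210%) and 15 lower (0.0450%), and NDRG1 was the 1 cluster called in both cell types. The 51 clusters of VHL+ cells, which were chosen by their change there, had a median log2 fold change of 0.97 in VHL+ and of 0.15 in VHL- cells. In VHL- cells NDRG1 had log2 signals of 10.48 and 10.30 under normoxia and of 11.33 and 11.59 under hypoxia, and thus started higher than in VHL+ cells, while the hypoxia arrays of both cell types lay between 11.12 and 11.59. SLC2A1 had 12.21 and 12.06 under normoxia and 12.63 and 12.71 under hypoxia, close to the hypoxia level of VHL+ cells. CXCL8 was higher in all 4 VHL- arrays (10.55 to 11.33) than in any VHL+ array, whereas EDN2 stayed between 6.98 and 7.51. These levels place the hypoxia effects of both cell types side by side.

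**Figure D5:**
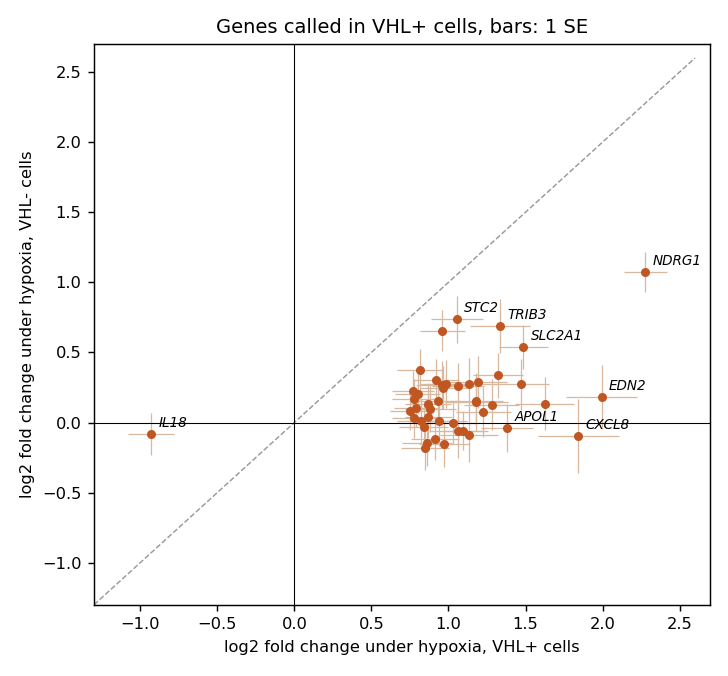
The log2 fold changes of the 45 called genes under hypoxia are plotted for VHL+ cells (horizontal axis) against VHL- cells (vertical axis), with bars of 1 SE and the line of equal change dashed. The points were chosen by the horizontal axis, NDRG1 (2.28 and 1.07) has the highest value on both axes, and IL18 (−0.93 and −0.08) lies to the left.

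The test of the difference between the effects of hypoxia in VHL+ and VHL- cells called 2 clusters (0.00601%), and both had no gene symbol. Whether these 2 clusters measure a transcript or a control of the array was not checked. No named gene passed. The smallest adjusted p was 0.0995, for NDRG1 with a difference of 1.21 ± 0.20, APOL1 with 1.42 ± 0.24 and EFHD2 with 1.16 ± 0.20. The largest positive differences belonged to CXCL8 with 1.94 (adjusted p = 0.170), EDN2 with 1.81 (adjusted p = 0.118), LOC151760 with 1.49, CXCL1 with 1.44 (adjusted p = 0.136) and TFRC, the transferrin receptor, with 1.43 (adjusted p = 0.651). TFRC went from 10.77 and 10.15 to 11.02 and 9.43 in VHL+ cells, with overlapping groups, and from 10.95 and 10.60 to 8.97 and 9.24 in VHL- cells. On the negative side were TXNIP with −1.06, CTH of cysteine synthesis with −1.02, PSAT1 of serine synthesis with −0.87, the polyamine oxidase gene SMOX with −0.86 and the stress gene NUPR1 with −0.85 (adjusted p = 0.651 for each). In VHL- cells, 5 of the 36 measured ATF4 targets and genes of serine synthesis were called higher, against 0.0210% of all clusters. The median of this list was 0.53 in VHL- and 0.35 in VHL+ cells. Among the 5 were CTH with 1.65 (adjusted p = 0.0181), NUPR1 with 1.66 (adjusted p = 0.00571), PSAT1 with 1.26 (adjusted p = 0.0213) and PCK2 with 1.09 (adjusted p = 0.0335). In VHL+ cells these genes differed by 0.63, 0.81, 0.39 and 0.745 without passing (adjusted p = 0.708, 0.317, 0.857 and 0.222). A difference between the cell types was thus not established for any named gene.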

How the data were processed

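Each of the 4 groups had 2 arrays. The authors deposited log2 signals per transcript cluster, which per their methods result from the RMA procedure in Partek (version not given in the sources used here). These values were used as deposited. Gene symbols came from the platform annotation: of 33297 clusters, 19460 had 1 symbol, 1754 several and 12083 none, and 19429 clusters matched RefSeq. A gene was represented by its brightest cluster with 1 symbol.

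Comparisons were contrasts of a limma 3.58.1 fit (R 4.3.3) with 1 mean per group over the 8 arrays, 4 residual and 13.97 prior degrees of freedom, and Benjamini-Hochberg adjustment over all clusters with a threshold of 0.05. The fit was run on simulated arrays with independent noise in each cluster. They held no differences in array brightness, so the run does not show how such differences affect the calls. The 31 gene lists (809 genes, 748 measured) and all members were chosen with earlier results of these data known, and genes not matched are not analysed here. Named were the 15 largest rises and falls among clusters that passed and had groups without overlap, up to 5 called members per list and direction or the 2 with the smallest p, all genes of oxygen sensing, genes measured by other assays of the study, and the 5 largest differences each way between cell types. LDHA, PGK1, ENO2, PFKL, EDN1, NFKB2, IFIH1 and OAS1, which did not pass, were added after their values were seen. Alternatives covered normalization, variance model, filters, thresholds, the methods' one-way test, the replicate number as a block and each array left out. The number of arrays limits the precision.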

Additional observations from a re-analysis of the deposited data

Results flagged for a closer look

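The hypoxia effect differed between VHL+ and VHL- cells for 2 transcript clusters by limma's test of the difference. Neither has a gene symbol, and whether they measure a transcript or a control of the array was not checked. Cluster 7892639 had log2 signals of 10.40 and 10.20 under normoxia and of 11.14 and 10.46 under hypoxia in VHL+ cells, and of 11.34, 11.43, 9.76 and 9.68 in VHL- cells, with a difference of 2.165 ± 0.248 (SE, adjusted p = 0.00117). Cluster 7895995 had 7.08 and 7.10 under normoxia and 7.89 and 7.33 under hypoxia in VHL+ cells, and 7.94, 8.04, 6.44 and 6.39 in VHL- cells, with a difference of 2.098 ± 0.227 (adjusted p = 0.000985). In both clusters the fall in VHL- cells passed (−1.67 and −1.58, adjusted p = 0.000333 for each), whereas the rises of 0.50 and 0.52 in VHL+ cells did not (adjusted p = 0.577 and 0.411). No cluster passed this test after quantile normalization or median centring.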

How the results depend on the processing

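All 51 called clusters that an alternative tested kept their direction, but the number of calls moved with the fit. Clusters called higher and lower under hypoxia in VHL+ cells, with the listed genes among them after the word "listed", were 50 and 1 (listed 19) as reported. They were 214 and 14 (listed 72) with the VHL+ arrays alone, 173 and 9 (listed 59) with a trend and robust estimation, 8 and 0 (listed 4) with bright clusters only and 44 and 1 (listed 19) with 1-symbol clusters only. Quantile normalization gave 1 and 0 (listed 1), with 1815 clusters at an unadjusted p below 0.05, and median centring 1 and 0 (listed 1), with 2401. Requiring a 2-fold change left 23 and 0 (listed 11). At an unadjusted p below 0.005, where chance gives 166.5 clusters, limma called 353 and 29 (listed 79), the methods' test 114 and 7 (listed 6) on 2 groups and 125 and 11 (listed 7) with the spread of 4 groups. After adjustment the methods' test called 0 and 0 (listed 0) in both forms, with 1300 and 1571 clusters at an unadjusted p below 0.05. Leaving out each array gave 0 to 342 higher, 0 to 24 lower and 0 to 79 listed genes, where the lone array of a group was assumed to vary like the other groups. The cause was not tested.

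The labels do not say that a replicate number marks a shared culture. Deviations from the group means of same-numbered arrays correlated with r = 0.305 between the 2 VHL+ groups and between 0.05 and 0.605 between other pairs of groups. With the replicate block, 310 clusters were called higher and 26 lower (listed 88), and 143 and 10 (listed 55) with the VHL+ arrays alone. Of 125 genes followed through the settings, 31 that had not passed did so with the block, among them TXNIP, EDN1, DDIT4, CCND1, P4HA2, VEGFA and BNIP3L, and none was lost. Passing with the block does not mean that the pairs agreed closely. For TXNIP the same-numbered arrays differed by −0.995 in replicate 1 and −2.427 in replicate 2. Alternatives chosen after seeing the data were quantile normalization with the replicate block, with 1 and 0 (listed 1), and quantile normalization at an unadjusted p below 0.005, with 139 and 112 (listed 38). The difference between the cell types called 2 clusters as reported, 98 with the replicate block, 0 after quantile normalization and 0 after median centring (963 and 875 at an unadjusted p below 0.05), and 0 to 203 on leaving out each array, where 0 was found without VHL+ hypoxia replicate 1 and 203 without VHL- hypoxia replicate 2.

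None of the called genes turned direction. Of genes that did not pass, log2 fold changes after quantile normalization, the same with the replicate block, turned to −0.030 for HIF3A, −0.072 for ARNT, −0.067 for HIF1AN, −0.102 for CUL2, −0.092 for ELOC, −0.031 for ACO1 and −0.084 for FTL. Median centring gave −0.061 for HIF3A, −0.028 for ARNT, −0.015 for HIF1AN, −0.051 for CUL2, −0.045 for ELOC and −0.054 for FTL. Leaving out each array gave ranges across 0 of −0.404 to 0.077 for CITED2, −0.078 to 0.052 for CREBBP, −0.081 to 0.204 for CUL2, −0.036 to 0.171 for ELOC, −0.129 to 0.027 for EP300, −0.236 to 0.185 for EPAS1, −0.028 to 0.145 for FTL, −0.054 to 0.250 for HIF1AN, −0.051 to 0.156 for HIF3A and −1.029 to 0.559 for TFRC.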
